A study of Mus musculus with 384 samples.

Results

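The cell division cycle was followed through 38 genes in 378 cells sorted singly from the back skin of mice. The sort, described below, included 41 Sca-1-positive cells and did not select hair follicle stem cells alone. Of the 38, 16 act in DNA replication and are called S-phase genes here, and 22 act from late S phase to the end of mitosis and are called mitosis genes. They were taken by symbol from the 46517 gene rows of the deposited table, where each symbol was found. Rows were matched by symbol and not by level, but the list was chosen with earlier results of these data known.

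Hair follicle stem cells sit in the bulge of the follicle and rest for most of the hair cycle. They divide in short bursts when a new hair starts to grow. A cell that enters the cycle first loads and fires the MCM helicase on its DNA and makes nucleotides, and these genes are switched on by E2F factors. Genes for the mitotic kinases, the spindle and chromosome segregation are held silent until later by the DREAM complex, which binds CHR letters in their promoters beside CCAAT letters bound by NF-Y. Later they are driven by MuvB with B-Myb and FoxM1. RNA of S-phase genes can be present in cells that are not dividing at that moment, while mitosis genes mark cells from late S phase to division.

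All mice carried Sox9-CreER, a tamoxifen-inducible recombinase made in cells that use the Sox9 promoter, an R26-YFP reporter on both chromosomes and a floxed NFIX gene on both (NFIXfl/fl). NFIB and NFIX are transcription factors of the nuclear factor I family. The groups differed in NFIB: cKO mice were NFIBfl/+ and dKO mice were NFIBfl/fl, so the cKO group is no wild type. Mice were labelled male and P70 (postnatal day 70), an age the study places in the second telogen, a resting phase of the follicle. Cells were sorted as DAPI-negative, integrin α6-positive and YFP-positive, and as negative or positive for Sca-1, a surface protein encoded by Ly6a. Sca-1-negative cells came from 3 cKO plates (71, 47 and 65 cells) and 2 dKO plates (93 and 61 cells). Sca-1-positive cells came from cKO plate 3 (22 cells) and dKO plate 2 (19 cells). No label ties a cell to a mouse. Each genotype and gate was therefore counted as 1 sample, plates are given apart, and no test was run.

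Values are TPM, a gene's share of all transcripts of a cell, which is scaled for gene length but keeps no read depth. The number of genes at 1 TPM or more stands in for depth, and its median by plate and gate was 4770 to 5199. Nfib RNA was present on all plates, with Sca-1-negative means of 67.1 to 80.4 TPM in cKO against 58.4 and 90.4 TPM in dKO. Nfix averaged 43.7 to 48 TPM in cKO against 29.6 and 32.3 TPM in dKO. These are values of whole genes, which do not show whether the floxed exons were removed, so they check no label. Xist averaged 44.5 to 59.9 TPM on cKO plates 1 and 2 and dKO plate 1 and at most 0.102 TPM elsewhere, although every cell was labelled male. Ly6a was at 10 TPM or more in 26.2% to 35.5% of the cells of each Sca-1-negative plate and in 81.8% and 89.5% of the Sca-1-positive cells.

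The start regions of these genes carry different letters. RefSeq promoters (GRCm38.p6, 250 bases before to 50 after the start) were matched for 32 of the 38 genes, and Aurkb, Ccna2, Mcm4, Tpx2, Gins2 and Ccne2 had no entry. For Mcm7, Uhrf1 and Fen1, which had 2 windows each, an element in either counted. CHR letters (TTTGAA or TTCGAA) were in 15 of 19 mitosis genes (78.9%), 3 of 13 S-phase genes (23.1%) and 21.7% of all 27025 genes with such a window. CCAAT was in 17 of 19 mitosis genes (89.5%), 9 of 13 S-phase genes (69.2%) and 41.1% of all genes. E2F letters (TTCCCGC or TTGGCGC or TTGCCGC or TTCGCGC) were in 4 of 19 mitosis genes (21.1%), 9 of 13 S-phase genes (69.2%) and 10.9% of all genes. CHR and CCAAT stood together in 78.9% of the mitosis genes, 15.4% of the S-phase genes and 9.65% of all genes. Both strands were searched, overlapping words were counted apart, and an E2F word read from the other strand (GCGCCAA) can share letters with CCAAT. A match is a run of letters and not a measured binding site.

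5 promoters are shown because they hold the contrast between the groups, with all 3 kinds of letters in capitals and the rest in lower case, 5′ to 3′ on the gene's own strand. Not all genes followed the contrast. Of the mitosis genes, Nusap1 and Birc5 held no word of any kind, and Cenpe and Ccnb1 held no CHR. Of the S-phase genes, Mcm2, Mcm7 and Fen1 held a CHR word. Mcm3 (chr1:20820263-20820562, reverse strand) and Mcm6 (chr1:128359656-128359955, reverse strand), helicase subunits, held 3 and 5 E2F words and no CHR. They also held 3 and 2 CCAAT words. Top2a (chr11:99024140-99024439, reverse strand), a topoisomerase that untangles chromosomes, held 4 CHR and 6 CCAAT words and no E2F word. Ube2c (chr2:164769679-164769978, forward strand), a ubiquitin-conjugating enzyme of the anaphase-promoting complex, held 1 CHR and 6 CCAAT words and no E2F word. Cdk1 (chr10:69352863-69353162, reverse strand), the kinase that drives entry into mitosis, held 2 CHR, 3 CCAAT and 2 E2F words.
Mcm3: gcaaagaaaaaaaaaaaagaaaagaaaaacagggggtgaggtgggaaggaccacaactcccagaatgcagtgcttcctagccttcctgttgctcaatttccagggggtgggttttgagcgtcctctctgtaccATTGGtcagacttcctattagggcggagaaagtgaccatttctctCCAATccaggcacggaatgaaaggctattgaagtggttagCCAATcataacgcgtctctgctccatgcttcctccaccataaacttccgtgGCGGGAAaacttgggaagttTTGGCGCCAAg
Mcm6: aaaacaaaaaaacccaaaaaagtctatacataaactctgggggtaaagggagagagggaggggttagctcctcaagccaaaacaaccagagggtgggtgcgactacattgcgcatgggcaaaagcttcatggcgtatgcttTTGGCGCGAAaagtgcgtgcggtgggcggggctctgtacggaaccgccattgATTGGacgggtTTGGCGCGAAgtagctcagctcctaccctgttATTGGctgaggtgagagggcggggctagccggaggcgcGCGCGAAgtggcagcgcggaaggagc
Top2a: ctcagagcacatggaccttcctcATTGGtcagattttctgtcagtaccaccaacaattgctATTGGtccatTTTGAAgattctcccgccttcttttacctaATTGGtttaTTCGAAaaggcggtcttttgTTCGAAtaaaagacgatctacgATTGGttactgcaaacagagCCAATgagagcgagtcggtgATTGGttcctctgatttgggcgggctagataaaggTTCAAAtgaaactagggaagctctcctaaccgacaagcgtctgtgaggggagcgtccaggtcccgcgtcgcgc
Ube2c: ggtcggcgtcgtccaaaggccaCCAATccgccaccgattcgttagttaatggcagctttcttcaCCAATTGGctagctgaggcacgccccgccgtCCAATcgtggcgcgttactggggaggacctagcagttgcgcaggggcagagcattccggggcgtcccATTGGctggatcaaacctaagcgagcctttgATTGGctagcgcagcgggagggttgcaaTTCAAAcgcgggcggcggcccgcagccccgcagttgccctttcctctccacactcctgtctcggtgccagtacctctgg
Cdk1: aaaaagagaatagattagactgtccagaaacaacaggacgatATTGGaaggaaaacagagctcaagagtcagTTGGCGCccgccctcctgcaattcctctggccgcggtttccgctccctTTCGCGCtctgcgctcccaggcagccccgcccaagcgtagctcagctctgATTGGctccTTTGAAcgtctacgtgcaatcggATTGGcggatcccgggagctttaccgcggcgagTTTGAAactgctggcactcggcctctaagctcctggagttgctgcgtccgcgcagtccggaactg

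S-phase genes were found in more cells than mitosis genes. A gene was called found in a cell at 10 TPM or more. The share of the 378 cells in which an S-phase gene was found ran from 1.06% for Cdc6 to 43.7% for Pcna, with a median of 16.4% over the 16 genes. For the mitosis genes it ran from 2.91% for Cenpe to 10.3% for Top2a and for Cenpa, with a median of 5.56% over the 22. Mean TPM over the 5 Sca-1-negative plates, each plate weighted equally, ran from 0.263 to 16.98 for S-phase genes (median 5.93) and from 0.701 to 10.03 for mitosis genes (median 3.00).

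**Figure D1:**
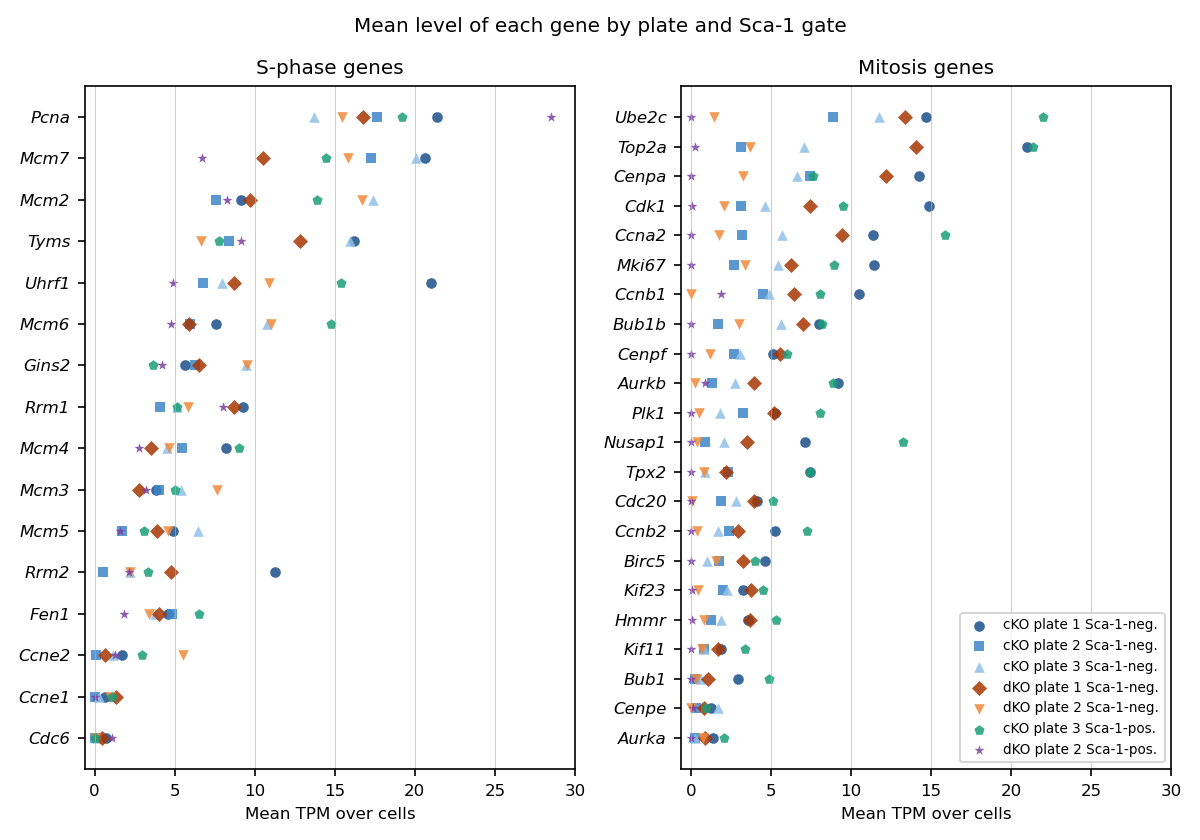
Mean TPM of each of the 38 genes over the cells of each plate and Sca-1 gate (horizontal axis, TPM, linear), S-phase genes on the left and mitosis genes on the right, 1 symbol a plate and gate. Pcna and Mcm7 have the highest means of the S-phase genes and Ube2c, Top2a and Cenpa of the mitosis genes, and among Sca-1-negative symbols cKO and dKO interleave for all genes but Mcm7 and Ccne1.

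The clamp gene Pcna and the helicase gene Mcm7 were the S-phase genes found in the most cells, followed by Tyms and Rrm1. Pcna (GRCm38 chr2:132249162-132253314), the sliding clamp of DNA polymerases, was found in 43.7% of cells and averaged 21.4, 17.6 and 13.7 TPM on cKO plates 1 to 3, against 16.7 and 15.5 TPM on dKO plates 1 and 2. Mcm7 (GRCm38 chr5:138164583-138172422), a helicase subunit, was found in 100 cells and averaged 20.6, 17.3 and 20.1 TPM on cKO plates 1 to 3, against 10.6 and 15.8 TPM on both dKO plates. Both dKO values of Mcm7 lay below all 3 cKO values, but on the mean log2 scale the plates overlapped. The other helicase subunits Mcm2, Mcm3, Mcm4, Mcm5 and Mcm6 were found in 50 to 74 cells and averaged 4.31 to 12.1 TPM over the plates. Mcm2 averaged 9.14, 7.57 and 17.4 TPM on cKO plates 1 to 3, against 9.71 and 16.7 TPM on both dKO plates, so plates of 1 genotype differed as much as the genotypes. Gins2, a part of the GINS complex that joins the helicase, was found in 68 cells. Cdc6, which loads the helicase, was found in 4 cells. Fen1, which trims Okazaki fragments, was found in 46 cells. Uhrf1, which keeps DNA methylation at the fork, was found in 58 cells and averaged 21, 6.77 and 7.95 TPM on cKO plates 1 to 3, against 8.73 and 10.9 TPM on both dKO plates.

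Enzymes of nucleotide supply and the E cyclins covered a wide range. Tyms, thymidylate synthase, was found in 93 cells and averaged 16.2, 8.41 and 15.9 TPM on cKO plates 1 to 3, against 12.8 and 6.65 TPM on both dKO plates. Rrm1, the large subunit of ribonucleotide reductase, was found in 78 cells. Rrm2, its small subunit, was found in 30 cells and averaged 11.2 TPM on cKO plate 1 against 0.555 to 4.78 TPM on the other 4 plates. Ccne1 and Ccne2, the E cyclins that start S phase, were found in 9 and 14 cells. Their means over the plates were 0.654 and 1.82 TPM, near the pseudocount of 1 TPM.

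The means of the mitosis genes came from few cells with high levels. Ube2c was found in 25 cells, with a median of 122.4 TPM in them and a highest value of 445.5 TPM. Its plate means were 14.7, 8.89 and 11.8 TPM for cKO, against 13.4 and 1.45 TPM for dKO. Cdk1 was found in 21 cells, with a median of 133.6 TPM in them, and its plate means were 14.9, 3.13 and 4.61 TPM for cKO, against 7.43 and 2.09 TPM for dKO. In both genes the highest mean came from cKO plate 1 and the lowest from dKO plate 2, with the other plates between.

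The remaining mitosis genes are given by role. The cyclins that partner Cdk1, Ccna2, Ccnb1 and Ccnb2, were found in 24, 20 and 22 cells. Aurkb and Birc5, kinase and survivin subunit of the chromosomal passenger complex, were each found in 21 cells, Aurka of the spindle poles in 13 and Plk1, a kinase of mitotic entry, in 20. The spindle checkpoint kinase Bub1 was found in 15 cells and its relative Bub1b in 31. Of the centromere proteins, the histone variant Cenpa was found in 39 cells, Cenpf in 21 and the motor Cenpe in 11. Cdc20, which activates the anaphase-promoting complex, was found in 22 cells. Among spindle proteins Nusap1 and Tpx2 were found in 21 and 20 cells, the motors Kif11 and Kif23 in 16 and 24, and Hmmr in 16. Top2a was found in 39 cells and Mki67, which coats mitotic chromosomes and is used as a proliferation marker, in 34. Top2a averaged 21, 3.11 and 7.06 TPM on cKO plates 1 to 3, against 14.03 and 3.70 TPM on both dKO plates.

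Counted per cell, many cells held S-phase genes without mitosis genes, while most cells with mitosis genes also held S-phase genes. At least 3 S-phase genes were found in 30.4% of the 378 cells and at least 3 mitosis genes in 30 cells (7.94%). Of the 30 cells, 24 also held at least 3 S-phase genes and 6 did not. The other 91 cells with S-phase genes held fewer than 3 mitosis genes, and 257 cells held fewer than 3 of either kind. Of mitosis genes, 284 cells held none, 53 held 1 and 11 held 2. A further 11 cells held 3 to 9, no cell held 10 or 11, and 19 cells held 12 or more. S-phase genes had no such gap, with 72 cells at 0, 191 at 1 or 2, 80 at 3 to 7 and 35 at 8 or more.

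**Figure D2:**
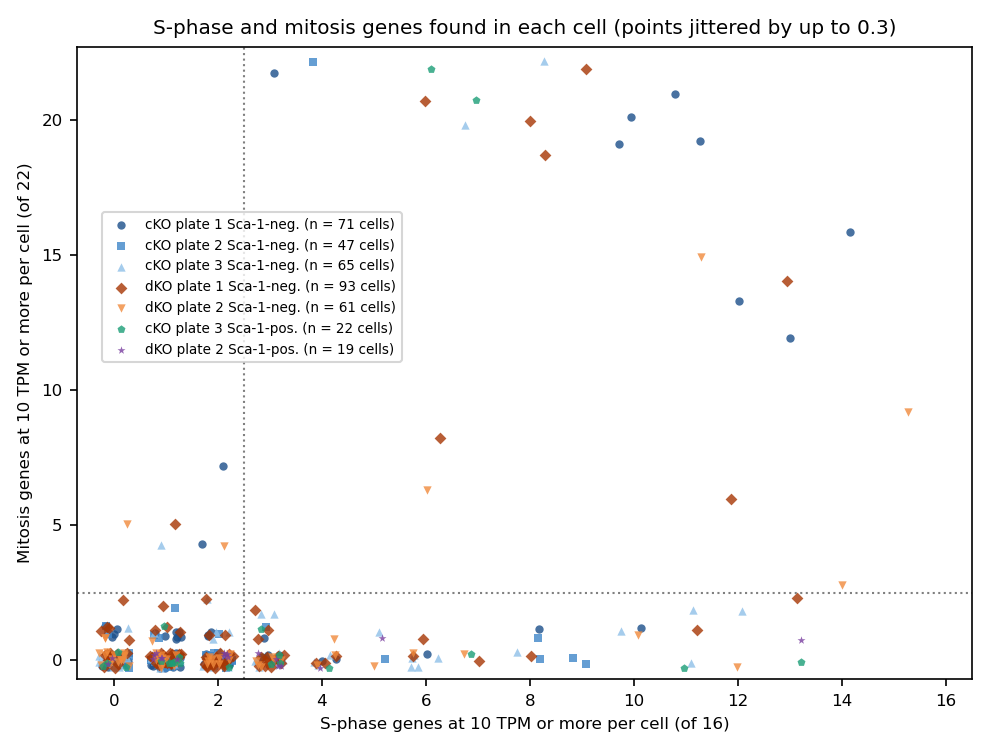
Number of S-phase genes (horizontal axis, of 16) against number of mitosis genes (vertical axis, of 22) found at 10 TPM or more in each of the 378 cells, 1 point a cell, jittered by up to 0.3, with marker and colour for plate and gate and dotted lines at the limit of 3 genes. Cells spread along the horizontal axis without mitosis genes, and a separate group of 19 cells with 12 or more mitosis genes stands above.

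5 cells held all 22 mitosis genes. They were well A1 of dKO plate 1, F1 of cKO plate 1, C10 of cKO plate 2, H4 of cKO plate 3 and the Sca-1-positive well B12 of cKO plate 3. Their summed mitosis-gene level was 3010, 2902, 2237, 1608 and 2268 TPM in that order. The other 5 of the 10 cells with the most were C11 and F10 of dKO plate 1, A1 of cKO plate 1, F4 of cKO plate 3 and the Sca-1-positive well B10 of cKO plate 3, with 20 or 21 mitosis genes and 1617 to 2636 TPM. All 3 cKO plates and dKO plate 1 are among these 10 cells, while the highest cell of dKO plate 2, well F8, held 15 mitosis genes and 516 TPM.

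The S-phase genes were not all found alike in cells rich in S-phase genes and in cells rich in mitosis genes. Cells were put in classes after these counts were seen, and the S-phase class was picked by its S-phase genes, so the values are a description. Among 19 cells with at least 8 S-phase and fewer than 3 mitosis genes, the helicase subunits Mcm2, Mcm3, Mcm4, Mcm5, Mcm6 and Mcm7 were found in 18, 17, 17, 18, 16 and 18, and Gins2 in 13. Among 14 cells with 19 or more mitosis genes, the subunits were found in 5, 5, 7, 8, 4 and 12, and Gins2 in 2. These 14 cells were not chosen to lack S-phase genes and held 3 to 11 of them. Of all 19 cells with 12 or more mitosis genes, 13 also held at least 8 S-phase genes. Mcm7 was frequent in both classes, with medians of 64.1 and 49.95 TPM. Median Mcm2 was 74.3 TPM in the first class and 1.93 TPM in the second, and median Mcm6 was 23.8 TPM and 0 TPM.

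Of the other S-phase genes, Uhrf1 was found in 13 of the 14 mitosis-rich cells, Rrm1 in 13, Tyms in 12, Rrm2 in 10, Pcna in 8 and Fen1 in 8. In the 19 S-phase cells the same genes were found in 14, 12, 15, 4, 15 and 9. Median Rrm2 was 27.7 TPM in the mitosis class and 0 TPM in the S-phase class. Ccne2 was found in 0 of the 14 cells, which allows a share of up to 21.4%, and in 6 of the 19. Ccne1 was found in 1 and 2 cells and Cdc6 in 0 and 1.

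One class of 5 cells held 12 to 16 mitosis genes and 11 to 14 S-phase genes. Mcm2, Mcm3, Mcm5, Mcm6, Pcna, Rrm1, Rrm2, Tyms and Uhrf1 were found in all 5 and Ccne2 in 4. Of the mitosis genes, Top2a, Mki67, Ccna2, Ccnb2, Birc5, Bub1b and Nusap1 were also found in all 5. Cenpe was found in none, Bub1 in 1, and Ccnb1, Cenpa, Cenpf, Cdc20, Ube2c, Aurka, Kif11 and Hmmr in 2 each. Median Ube2c was 9.08 TPM in these 5 cells against 273.4 TPM in the 14 cells with 19 or more mitosis genes, and median Cdc20 was 9.64 TPM against 47.7 TPM. Both classes were cut by the number of mitosis genes found, so fewer and lower mitosis genes in the 5 cells are built in. Another class of 6 cells held 3 to 9 mitosis genes and fewer than 3 S-phase genes. Mki67 and Cenpa were found in all 6 of them, Cenpf in 4, Top2a and Kif23 in 3, and Cdk1, Ccna2, Ccnb2, Plk1 and Aurkb in none. The cut also set how few mitosis genes these 6 cells could hold, so only which genes were found is described.

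**Figure D3:**
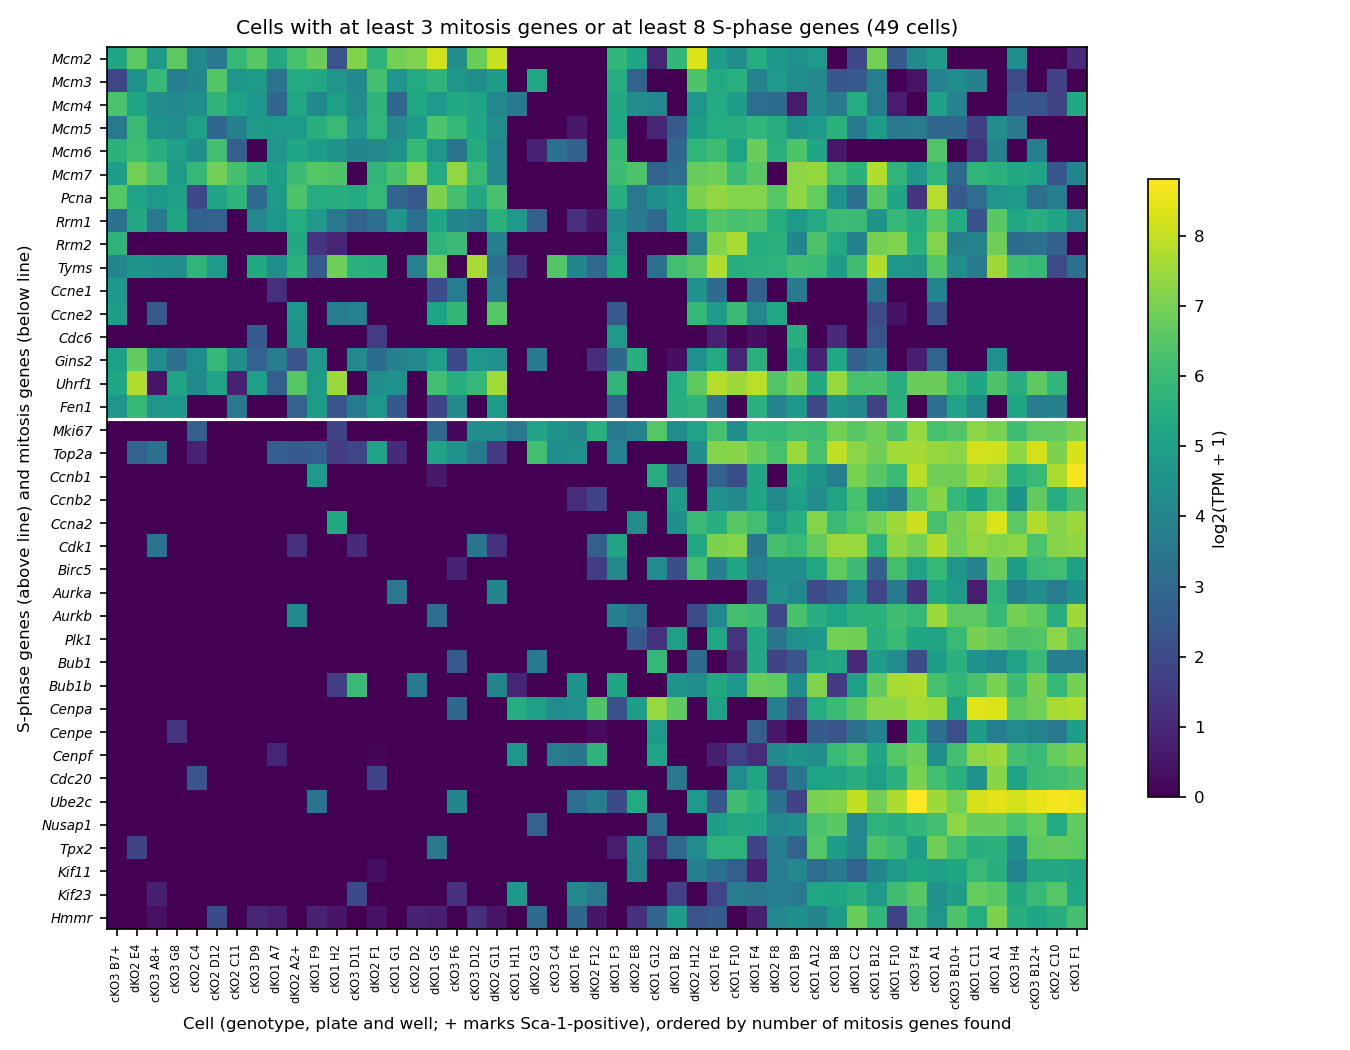
Level of each of the 38 genes (vertical axis, S-phase genes above and mitosis genes below) in the cells with at least 3 mitosis genes or at least 8 S-phase genes (horizontal axis, 1 column a cell, ordered by the number of mitosis genes), with colour for log2(TPM + 1). Mitosis genes fill the columns on the right together, while Mcm2, Mcm3, Mcm6 and Gins2 are higher on the left and Tyms, Rrm1 and Uhrf1 are filled on both sides. Cells with fewer than 3 mitosis genes were drawn only if they held at least 8 S-phase genes. Many S-phase genes on the left are therefore built in.

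Mitosis genes were found together far more tightly than S-phase genes. Of the cells in which a mitosis gene was found, 61.5% (Top2a, Cenpa) to 100% held at least 3 other mitosis genes, with a median of 90.2% over the 22 genes. The share was 100% for Birc5, Bub1, Kif11 and Hmmr. For an S-phase gene and at least 3 other S-phase genes it was 33.9% (Pcna) to 100% (Cdc6, 4 cells), with a median of 67.1%. Cells with an S-phase gene held at least 3 mitosis genes in 11.5% (Pcna) to 60% (Rrm2) of cases, median 29.2%. Rrm2 was thus the S-phase gene found most often with mitosis genes. Its window held E2F and CCAAT but no CHR letters, and a link between promoter letters and such joint finding was not tested.

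**Figure D4:**
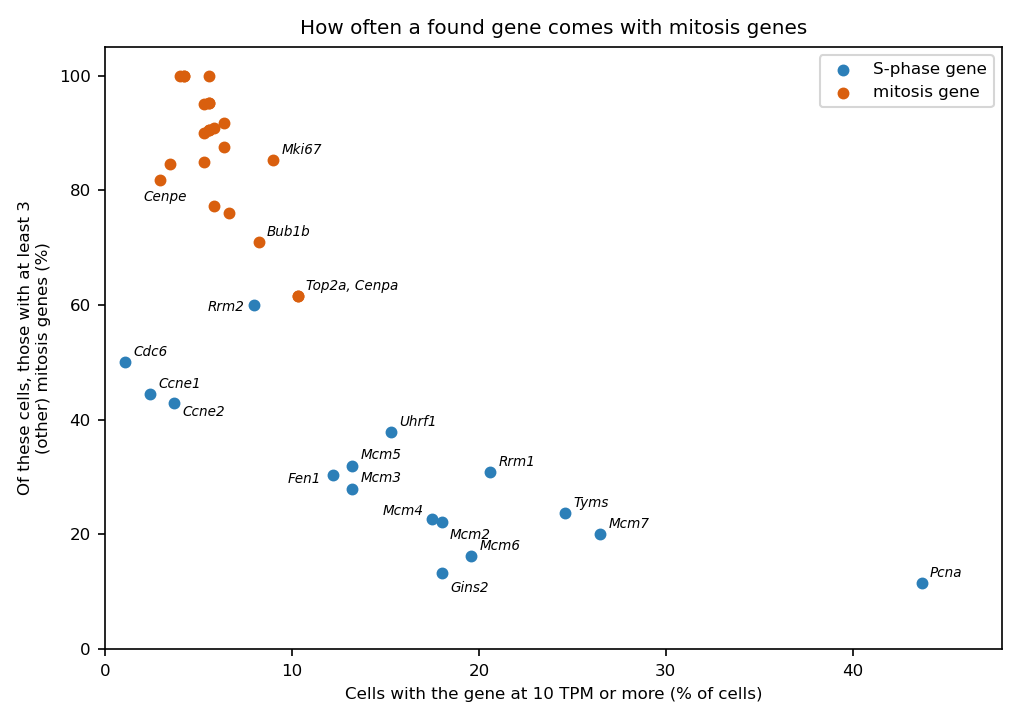
For each of the 38 genes, the share of the 378 cells in which it was found at 10 TPM or more (horizontal axis, %) against the share of those cells that held at least 3 mitosis genes, not counting the gene itself (vertical axis, %), 1 point a gene. Mitosis genes lie at 61.5% or more, and S-phase genes at 60% or less, from Pcna at 11.5% to Rrm2.

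Over the 378 cells the mean Pearson correlation of log2(TPM + 1) was 0.76 among the 231 pairs of mitosis genes (0.54 to 0.90), 0.33 among the 120 pairs of S-phase genes (0.09 to 0.71) and 0.27 between the kinds. These are descriptions over cells that share plates and depth. Rrm1, Rrm2, Tyms, Uhrf1 and Fen1 had a higher mean correlation with the mitosis genes (0.44, 0.59, 0.36, 0.49 and 0.32) than with the other S-phase genes (0.33, 0.36, 0.30, 0.39 and 0.30). Gins2 and Mcm6 had the lowest mean correlation with the mitosis genes, 0.05 and 0.12.

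Of the genes outside the list that averaged at least 5 TPM (7043 compared), those most like the summed log2(TPM + 1) of the mitosis genes were Cdca3 (r = 0.88), Hist1h2af (0.87), Foxm1 (0.85), Hist1h2ah (0.83), Hist2h3c2 (0.83), Racgap1 (0.82), Hist1h3c (0.81), Cdca8 (0.80), Hist1h3g (0.80) and Hist1h2ab (0.80). The histone genes have near-identical copies, so their single values are uncertain. Most like the S-phase genes were Pole (0.70), Lig1 (0.63), Hist1h2af (0.57), Hist2h3c2 (0.57) and Tk1 (0.57). Hist1h2af and Hist2h3c2 stood in both groups.

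The sum of the mitosis genes rested on few cells. Of the 337 Sca-1-negative cells, the 17 with the highest sum (5%) held 86% of all TPM of the mitosis genes, and 7 cells held 50% of it. For the S-phase genes the top 17 cells held 35%, and 32 cells made up 50%.

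The 30 cells with at least 3 mitosis genes carried epithelial RNA. Krt5, a keratin of basal keratinocytes, was found in 30 of 30 at 261 to 1810 TPM, Krt14 in 29, Krt15 in 30 and Itga6, the integrin of the sort, in 27. Of all 378 cells, 97.1%, 82.3%, 89.7% and 81.2% held these genes in that order. At least 3 of 12 bulge markers were found in 22 of the 30 cells (73.3%), against 69.3% of all cells. Cd34, a surface protein of the bulge, was found in 5 of the 30 and in 91 of all cells, and Lgr5 in 5 and 65. At least 3 of 8 upper-follicle markers were found in 13 of the 30 (43.3%) and in 37.8% of all cells. Taken singly, Ly6a was found in 21 of the 30 and 36.2% of all cells. Krt79 was not raised in this way, with 5 of the 30 and 17.7% of all cells. At least 3 suprabasal markers, genes of the layers above the basal cells, were found in 1 of the 30 (3.33%) and in 16.7% of all cells. No one of the 30 held 3 markers of immune cells, fibroblasts, melanocytes, vessels, Schwann cells or Merkel cells, and Ptprc was 0 in each. Of all 378 cells, 1 held 3 immune markers, 0 held 3 of the other kinds and Ptprc was found in 0. These zeros therefore do not set the 30 cells apart. The 30 cells had 4371 to 7424 genes at 1 TPM or more with a median of 6105, against a median of 5003 over the 378 cells, and the part of depth in the counts was not tested.

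Between the genotypes, the share of Sca-1-negative cells with mitosis genes overlapped plate by plate. At least 3 mitosis genes were found in 10 of 71 (14.1%, exact 95% binomial interval 6.97 to 24.4), 1 of 47 (2.13%, 0.0539 to 11.3) and 3 of 65 cells (4.62%, 0.962 to 12.9) on cKO plates 1 to 3. On dKO plates 1 and 2 there were 8 of 93 (8.60%, 3.79 to 16.2) and 6 of 61 (9.84%, 3.70 to 20.2). The intervals cover counting error only. The mean of the plates was 6.94% in cKO and 9.22% in dKO, and over all cells 14 cells each (7.65%, 4.25 to 12.5, and 9.09%, 5.06 to 14.8). Both dKO plates lay between the highest and the lowest cKO plate. Without cKO plate 1 the cKO mean was 3.37%. In cells with 4000 to 6000 genes the means were 2.90% in cKO and 5.73% in dKO.

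The order of the genotypes in this share turned under several settings. It was 17.2% in cKO and 11.9% in dKO when 1 TPM made a gene found, and 11.9% and 10.8% with the spike-in RNAs and the 5 most abundant rows of the table removed. Without cKO plate 2 the cKO mean was 9.35%, above the 9.22% of dKO. It also turned with a limit of 12 mitosis genes. Such cells numbered 8, 1 and 2 on cKO plates 1 to 3, against 5 and 1 on both dKO plates. The mean of the plates was 5.49% in cKO and 3.51% in dKO, against 6.94% and 9.22% at the limit of 3 genes. The limit of 12 was set at the gap seen in the counts.

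On cKO plate 1 the cells with many mitosis genes lay unevenly over the wells. Rows A and B held 11 cells, of which 5 had 12 or more mitosis genes. Rows C to H held 60 cells, of which 3 did. On cKO plate 3 and dKO plate 2, rows A and B held the Sca-1-positive cells. Without rows A and B of cKO plate 1 the cKO mean share at 3 genes was 5.03%.

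S-phase genes also overlapped plate by plate. At least 3 were found in 18 of 71 (25.4%, 15.8 to 37.1), 8 of 47 (17%, 7.65 to 30.8) and 25 of 65 cells (38.5%, 26.7 to 51.4) on the cKO plates. The dKO plates had 29 of 93 (31.2%, 22 to 41.6) and 18 of 61 (29.5%, 18.5 to 42.6). The mean of the plates was 26.9% in cKO and 30.3% in dKO, and both dKO plates lay within the cKO range. Without cKO plate 3, the highest, the cKO mean was 21.2%, and without cKO plate 2 it was 31.9%, above dKO. The cKO mean was also the higher when 1 TPM (67.3% against 66.1%) or 30 TPM (13.7% against 11.7%) made a gene found, with limits of 2, 5 or 8 genes, and on the plates without Xist RNA (38.5% against 29.5%). On the plates with Xist RNA the cKO mean was the lower (21.2% against 31.2%).

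The summed level of the 22 mitosis genes averaged 168.5, 56.1 and 75.4 TPM on cKO plates 1 to 3 and 118.6 and 26.9 TPM on dKO plates 1 and 2. The sum was highest on a cKO plate and lowest on a dKO plate, with the rest crossing. The mean was 1.37-fold higher in cKO, a log2 ratio of dKO to cKO of -0.45. The direction turned without cKO plate 1 (0.14), without dKO plate 2 (0.24) and within the plates that hold Xist RNA (0.08), and the ratio was -1.86 without dKO plate 1. Median sums were 3.37, 1.89 and 1.27 TPM for cKO, against 1.64 and 1.38 TPM for dKO, so most cells of every plate had next to none. A mean over cells cannot tell fewer cells with these RNAs from less RNA in each.

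**Figure D5:**
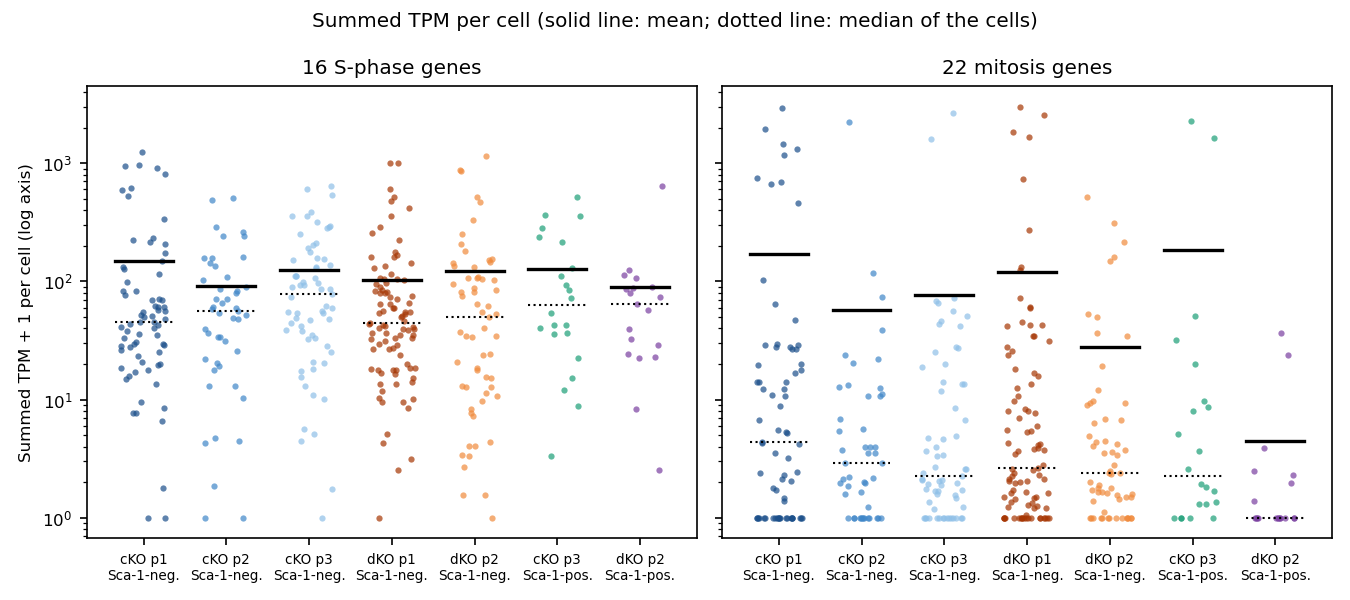
Summed TPM per cell of the 16 S-phase genes and of the 22 mitosis genes (vertical axes, log scale of TPM + 1) by plate and Sca-1 gate (horizontal axis), 1 point a cell, with a solid line at the mean and a dotted line at the median. Mitosis sums lie near 0 in most cells with a few above 1000 TPM, none of which is on dKO plate 2, and S-phase sums reach 1246 TPM, on cKO plate 1.

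The summed level of the S-phase genes averaged 146.7, 90.6 and 124.2 TPM on cKO plates 1 to 3, against 101.1 and 120.9 TPM on both dKO plates, a log2 ratio of -0.12, with the dKO plates inside the cKO range. It was 0.05 without cKO plate 1 and 0.07 without rows A and B of that plate. The median log2 ratio over all 7060 measured genes, those with at least 5 TPM over the plates, was also -0.12.

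Gene by gene, 17 of the 38 were measured, 9 S-phase and 8 mitosis genes. None was called in dKO against cKO, where a call asked for a 1.5-fold ratio and no overlap between the plates of the genotypes on both the mean and the mean log2 scale. The same rule called 1.77% of all 7060 measured genes higher and 3.95% lower in dKO, so 0 of 17 is near that background. The median log2 ratio was -0.12 for the 9 measured S-phase genes and -0.32 for the 8 mitosis genes. Over all 22 mitosis genes 19 had a ratio below 0, from -0.86 for Tpx2 to 0.16 for Aurka, but these genes share their few cells: 18 of the 22 had their highest plate mean on cKO plate 1 and 16 their lowest on dKO plate 2. Calls depended on single plates, and the rule called more of all genes where fewer plates were left. Tyms was called lower without cKO plate 2, where 5.03% of all measured genes were. Without cKO plate 3 Mcm2 was called higher (3.10% of all genes) and Mcm4 lower (7.42%). Without dKO plate 1 Tyms, Cenpa and Ube2c were called lower, 3 of 16 measured genes against 8.92% of all. Without dKO plate 2 Mcm4 and Mcm7 were called lower, 2 of 17 against 10.4% of all. Without cKO plate 1 none was called.

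Within the plates that hold Xist RNA, where dKO is 1 plate, the rule called 14.9% of all measured genes lower in dKO and 2 of 18 genes of the list, Mcm4 (log2 ratio -0.80) and Mcm7 (-0.79). Within the plates without Xist RNA, 1 plate against 1, it called 10.2% of all genes lower and 3 of 12 of the list, Tyms (-1.15), Top2a (-0.78) and Ube2c (-2.38). With 1 plate in an arm the rule of no overlap is met more easily. The calls of the 2 sets have no gene in common.

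Between the Sca-1 gates, mitosis genes went opposite ways on the 2 plates that hold both. On cKO plate 3 at least 3 mitosis genes were found in 2 of 22 Sca-1-positive cells (9.09%, 1.12 to 29.2) and 3 of 65 negative cells (4.62%). On dKO plate 2 they were found in 0 of 19 positive cells (exact interval 0 to 17.6) and 6 of 61 negative cells (9.84%). Taken as 3 of n, the 0 of 19 allows a share of up to 15.8%. The summed mitosis level averaged 182.7 TPM in positive against 75.4 TPM in negative cells on cKO plate 3, 2.41-fold higher, and 3.44 TPM against 26.9 TPM on dKO plate 2, 6.29-fold lower. On cKO plate 3 wells B12 and B10 held 96.6% of the positive cells' sum, and the mean of the other 20 positive cells was 6.75 TPM. Without cells that held 12 or more mitosis genes the log2 ratio on cKO plate 3 was -0.56 in place of 1.27.

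On dKO plate 2, 13 of the 22 mitosis genes were listed at 0 in all 19 Sca-1-positive cells, among them Ube2c, Mki67, Ccna2 and Plk1. Ccnb1 averaged 1.86 TPM there and 0 TPM in the negative cells. Aurkb (0.894 against 0.282 TPM) and Cenpe (0.153 against 0.0112 TPM) were the other 2 with a higher mean in the positive cells, all 3 at low levels. On cKO plate 3, 21 of the 22 were higher in the positive cells, up to 4.62-fold for Nusap1 and 4.49-fold for Tpx2, and Cenpe was lower. Most of the sum behind these ratios lay in the pair of wells named above.

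S-phase genes were present in both gates. At least 3 were found in 10 of 22 Sca-1-positive cells on cKO plate 3 (45.5%, 24.4 to 67.8) and 7 of 19 on dKO plate 2 (36.8%, 16.3 to 61.6), against 38.5% and 29.5% of the negative cells. Their sum averaged 125.4 against 124.2 TPM on cKO plate 3 and 88.5 against 120.9 TPM on dKO plate 2. The log2 ratio on dKO plate 2 was -0.45 for these means but 0.35 on mean log2 values, where the positive cells are the higher. Of the S-phase genes, 4 had a higher mean in the positive cells of dKO plate 2, Pcna, Rrm1, Tyms and Cdc6. Pcna was at 28.5 TPM in positive and 15.5 TPM in negative cells and was found in 14 of 19 and 21 of 61 cells. Pcna averaged 19.2 and 13.7 TPM on cKO plate 3. The helicase genes Mcm2 to Mcm7 were each lower in the positive cells of dKO plate 2, with ratios of positive to negative from 0.461 for Mcm7 to 0.665 for Mcm4. The same ratios on cKO plate 3 ran from 0.545 for Mcm5 to 1.82 for Mcm4, with Mcm6 at 1.34. On dKO plate 2 Mcm4 and Mcm5 averaged below 5 TPM over both gates, and each was found in 1 of the 19 positive cells.

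No gene of the list was called between the gates, where a call asked for a 2-fold ratio of means and a difference of 1 in mean log2(TPM + 1). On cKO plate 3, 21 of the 38 were measured, and the rule called 3.00% of 6639 genes higher and 5.80% lower. On dKO plate 2, 9 of the 38 were measured, all S-phase genes, and the rule called 4.29% of 6534 genes higher and 10.4% lower. Medians of the log2 ratio over all measured genes were -0.15 and -0.30.

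Other genes of the cell cycle were read from 4 further lists. Of 19 regulators of the E2F, RB and MuvB families, 6 were measured and 0 were called between the genotypes. The same held for 7 of 13 G1 cyclins and CDK inhibitors, 18 of 41 other replication genes and 13 of 50 other mitosis genes, with 0 called in either direction. Median log2 ratios were -0.17, -0.08, -0.04 and -0.32 in that order. The most abundant of each list were Tfdp2 and Rbl2, Ccnd2 and Cdkn1a, Orc3 and Orc4, and Cdc25b and Stmn1. Ccnd2, a D cyclin of G1 phase, averaged 74.1, 128.5 and 93.2 TPM on cKO plates 1 to 3, against 51.2 and 79.5 TPM on both dKO plates, crossing between them.

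Foxm1, one of the factors that drive mitosis promoters, was found in 25 cells and averaged 13.1, 1.81 and 3.12 TPM on cKO plates 1 to 3, against 6.10 and 5.51 TPM on both dKO plates. It averaged 13.7 TPM in the Sca-1-positive cells of cKO plate 3 and was listed at 0 in all 19 of dKO plate 2. Its lowest Sca-1-negative mean was on cKO plate 2, while for 16 of the 22 mitosis genes it was on dKO plate 2.

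Between the gates, 1 G1 gene and 1 mitosis gene were called higher in the positive cells of cKO plate 3. They were Ccnd2, at 211 against 93.2 TPM, and Prc1, a bundler of spindle microtubules, at 23.9 against 5.502 TPM. On dKO plate 2 Cdkn1a, the CDK inhibitor p21, was called higher at 76.4 against 27.03 TPM, and Wee1, a kinase that holds back Cdk1, at 28.3 against 7.50 TPM. Called lower there were Tfdp2, a partner of E2F, and the replication genes Orc3 of the origin complex, Pold2 of DNA polymerase delta and Slbp, which binds histone mRNA. Pold2 averaged 4.07 against 21.1 TPM and Orc3 6.74 against 22.9 TPM. On cKO plate 3, 9 G1 genes and 16 other mitosis genes were measured between the gates. On dKO plate 2 these were 7 E2F, RB and MuvB regulators, 7 G1 genes, 19 other replication genes and 6 other mitosis genes. The percentages of all genes given above are the background for these counts.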

How the data were processed

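Single cells were sorted into 96-well plates, amplified with Smart-seq2 and sequenced in paired ends, per the labels' protocols; the method adds no molecular identifiers and keeps no record of strand, so amplification copies and antisense reads are counted too. The deposited values are TPM, made by the authors; Bowtie2 2.2.9 and RSEM 1.2.30 with the mm10 (GRCm38) build are named in the submitters' processing notes. TPM keeps no read depth, so no total count per cell can be given, and Rn18s-rs5 alone took 57.8% of it on average, which lowers all other genes. The number in a title was read as a plate. The series' design text names ChIPseq, while its title and labels describe single-cell RNA. Of 384 cells, 378 passed a minimum of 1000 genes at 1 TPM; no columns were identical and no doublet caller was run on singly sorted cells.

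Plate means were averaged within a genotype with equal weight, and 1 TPM was added before taking ratios, which makes differences of low genes look smaller. A gene was measured at a mean of 5 TPM or more. Calls between genotypes (1.5-fold, plates apart) and gates (2-fold) are size rules and not statistical tests. Shares have exact Clopper-Pearson intervals, and 0 of n allows 3 of n. The members and lists, and the naming rule (all 38 members, the called or the 2 most abundant genes of each other list, the 10 and 5 genes most like the members, and the 10 cells with the most mitosis genes), were chosen with earlier results of these data known. Gene positions are from GENCODE M21. Software was Python 3.11.15, numpy 2.4.6, pandas 2.3.3 and scipy 1.17.1.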

Additional observations from a re-analysis of the deposited data

Results flagged for a closer look

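The summed level of the 22 mitosis genes in Sca-1-positive over Sca-1-negative cells went opposite ways on the 2 plates that hold both gates. The log2 ratio was 1.27 on cKO plate 3 (22 positive and 65 negative cells) and -2.65 on dKO plate 2 (19 and 61 cells). The difference between the plates was not tested, since each gate of a genotype is 1 sample. The cKO value rests on wells B12 and B10, which held 96.6% of the positive cells' sum, and was -0.56 without the cells that held 12 or more mitosis genes, where the dKO value was -2.15.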

How the results depend on the processing

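Of 234 combinations of a result and an alternative, 197 moved by less than the spread between plates, or than the interval of a share, or kept a count, and 37 did not. For log2 ratios the spread was 0.304 for the S-phase and 1.084 for the mitosis genes. It was taken from Sca-1-negative plates and used for the gate ratios too. The mitosis limit is wider than the genotype ratio of -0.45, so a ratio of the other sign can count as unmoved. Of 74 ratios under alternatives 11 had the other sign, 9 of them within that spread, such as the genotype ratio of the mitosis genes on plates with Xist RNA (0.08); the cause of the changes was not tested except where fewer cells, plates or genes made them. The depth behind TPM is unknown, each genotype and gate is 1 sample, and few cells carry the mitosis genes, so their shares rest on 0 to 10 cells of a plate and gate. No paired analysis was possible because the labels name no animal and no test was run.

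The mean share of cells with at least 3 S-phase genes, 26.9% in cKO and 30.3% in dKO, was 67.3% and 66.1% when 1 TPM made a gene found and 13.7% and 11.7% at 30 TPM. It was 55.7% and 49.8% with a limit of 2 genes, 14.9% and 14.4% with 5, and 10.1% and 8.40% with 8, chosen after seeing the data. With the spike-in RNAs and the 5 most abundant rows of the table removed it was 54.7% and 58%. In cKO it was 21.2% on plates with Xist RNA and 38.5% on the plate without. Leaving out each plate gave 21.2% to 31.9% in cKO and 29.5% to 31.2% in dKO.

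The share with at least 3 mitosis genes was 17.2% in cKO and 11.9% in dKO at 1 TPM, 2.90% in cKO and 5.73% in dKO in cells with 4000 to 6000 genes and 3.51% in dKO with a limit of 12 genes, chosen after seeing the data. Leaving out each plate gave 3.37% to 9.35% in cKO and 8.60% to 9.84% in dKO. The genotype log2 ratio of the summed mitosis genes ran from -1.86 to 0.24 when each plate was left out. Genes called lower in dKO numbered 2 of 18 on plates with Xist RNA (14.9% of all measured genes) and 3 of 12 on plates without (10.2%). When each plate was left out, 0 to 3 were called lower (5.03% to 10.4% of all) and 0 to 1 higher (2.04% to 6.5%).

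Between the gates, with the spike-in RNAs and the 5 most abundant rows removed, 2 genes (Mcm4 and Plk1) were called higher on cKO plate 3, where 4.49% of all genes were, and 1 (Pcna) on dKO plate 2 (5.25% of all). On mean log2 values 1 gene (Pcna) was called higher on dKO plate 2 (7.44% of all). The dKO gate ratio of the mitosis genes, -2.65, was -1.46 with a pseudocount of 10 TPM, -1.22 on mean log2 values and -4.23 against the negative cells of all dKO plates. The dKO gate ratio of the S-phase genes, -0.45, was 0.35 on mean log2 values and -0.83 without the highest cell of each gate. The cKO gate ratio of the mitosis genes turned to -0.56 without cells that held 12 or more of them. The top 10% of cells held 52% of the S-phase sum.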
